A study of Columba livia with 4 samples.

Results

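Acetylation and trimethylation of lysine 27 of histone H3 cannot occupy the same residue at once, and stretches of chromatin that carry them can lie side by side along a chromosome. Here 429 places were described where a domain of acetylated lysine 27 (H3K27ac) and a domain of trimethylated lysine 27 (H3K27me3) faced each other across a gap of at most 20 kb in pigeon melanocytes. Peaks of each mark were first merged over gaps of up to 5 kb. A pair was 1 domain of each mark, both at least 5 kb long, sharing no base and with no other domain of at least 5 kb of either mark touching the gap. The 429 pairs were found among 6267 neighbouring pairs of domains of any marks and any distance, built from 3801 H3K27ac and 3671 H3K27me3 domains of at least 5 kb. They held 395 of the H3K27ac domains (10.4%) and 397 of the H3K27me3 domains (10.8%). The pairs were chosen by the positions and lengths of the histone domains, so these, the gap widths and the content of both marks are given as a description with no test. The peaks of the transcription factor SOX10 were not used to choose them.

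The study mapped SOX10, H3K27ac and H3K27me3 by chromatin immunoprecipitation and sequencing in primary melanocytes of the rock pigeon, Columba livia, labelled as wild-type. There was 1 library for each target and 1 library of input chromatin. No sample was treated differently from another: all grew in Ham's F10 with penicillin, streptomycin and fungizone, the phorbol ester TPA at 85 nM, cholera toxin at 40 ng/mL, endothelin-3 at 10 ng/mL, and 10% fetal bovine and 5% Nu-serum. The SOX10 antibody came from Abcam and both histone antibodies from Active Motif. The peak lists held 6579 SOX10, 34223 H3K27ac and 36792 H3K27me3 peaks on 2200 scaffolds, and no values of the input were used here. The number of birds or cultures behind a library is not given in the sources used here, and no value has a replicate error. Intervals in brackets are exact 95% intervals of counting error only, apart from the bounds of ratios of medians. Neighbouring peaks are not independent, and the intervals were not adjusted for the number of comparisons. No gene annotation or sequence of this assembly was used here, so the labelled cell type was not checked against marker genes and no genes are named.

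H3K27ac is laid down by acetyltransferases such as p300 and CBP and marks active enhancers and promoters. H3K27me3 is written by Polycomb repressive complex 2, which can bind its own product and spread the mark over neighbouring nucleosomes. In flies and mammals, H3K27me3 domains can end at active genes or at sites of insulator proteins. SOX10 belongs to the SOX family of DNA-binding factors. In mammals it is needed for the neural crest cells that become melanocytes, and it binds enhancers of pigment genes together with MITF.

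Across gaps over 5 and up to 20 kb, neighbouring domains of different marks were fewer than a shuffled order of the marks would give. Domains of the same mark cannot lie within 5 kb of each other, because such peaks had been merged, so the order was compared for gaps over 5 and up to 20 kb. In that range 1758 neighbours lay on the same scaffold, of which 744 were both H3K27ac, 715 were both H3K27me3 and 299 had different marks (17.0%). With the marks of the domains shuffled within each scaffold, 854 neighbours with different marks are expected (48.6%), with an SD of 20.3. Both the mean and the SD are exact and not simulated. The observed number was 0.350 times the expected one. The shuffle keeps the positions of the domains and the number of each mark on a scaffold.

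Among gaps over 5 kb, the shortage of mixed neighbours was deepest at short range and shrank with distance. The shuffle does not model the merging rule, which sets the lower limit of this range. Just above that limit, at 5 to 6 kb, there were 120 H3K27ac and 156 H3K27me3 gaps beside 32 mixed ones. The 130 mixed gaps of up to 5 kb, a range where no same-mark gap can exist, are left out. With them the ratio was 0.465, from 429 mixed neighbours against an expected 923. The part of the merging rule in the trend was not tested. For gaps of 5 to 10 kb, 118 of 961 neighbours had different marks (12.3%), 0.252 times the expected 468 (SD 15.1). The ratio was 0.390 for gaps of 10 to 15 kb and 0.558 for gaps of 15 to 20 kb. Beyond the 20 kb limit it was 0.623 for gaps of 20 to 50 kb, 0.775 for 50 to 100 kb and 0.916 over 100 kb, where 955 of 2139 neighbours had different marks against an expected 1042 (SD 22.6). On scaffolds whose peaks span at least 1 Mb the ratio for gaps over 5 and up to 20 kb was 0.279, with 190 mixed neighbours against 680.0 (SD 18.4). On shorter scaffolds it was 0.628, with 109 against 174 (SD 8.54). Large domains of different marks also met by overlap: 522 pairs of domains of at least 5 kb shared a base, with a median of 6085 bp shared, and in 207 of them the shorter domain lay wholly inside the longer. Such overlaps are neither among the 429 pairs nor in the mixed counts set against shuffled order.

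**Figure D1:**
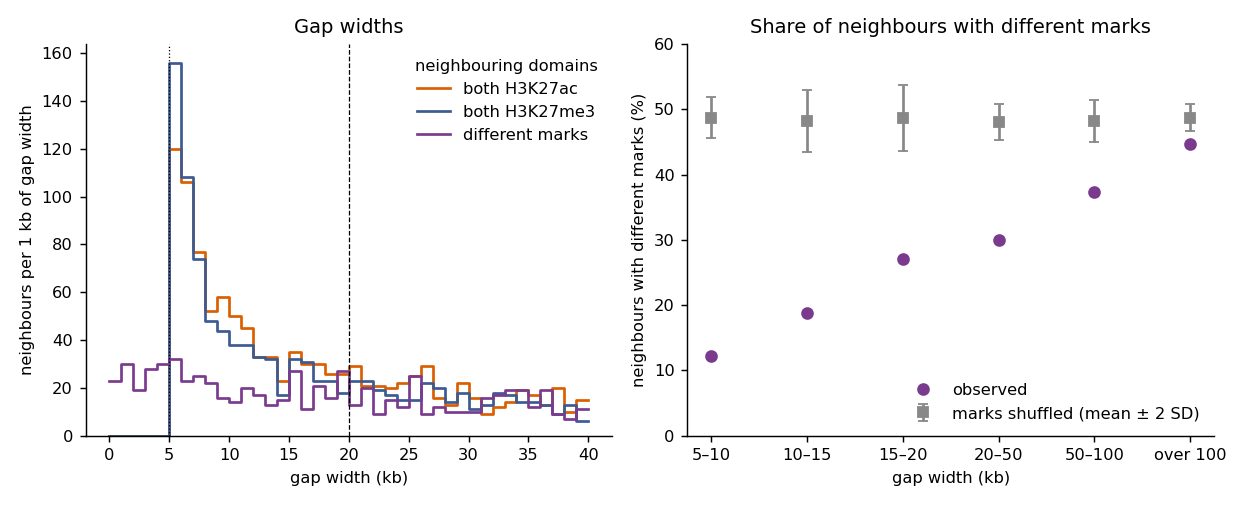
Left, number of neighbouring domains of at least 5 kb per 1 kb of gap width, for neighbours that were both H3K27ac, both H3K27me3 or of different marks, with the merging limit of 5 kb dotted and the pair limit of 20 kb dashed. Right, the share of neighbours with different marks by gap width (circles) beside the exact mean and 2 SD for shuffled marks (squares); the observed share climbs from 12.3% at 5 to 10 kb to 44.6% over 100 kb and stays under the shuffled values.

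The gaps of the pairs were spread over the whole range of widths. Their median was 8263 bp (7320 to 9178 bp), with quartiles at 4307 and 14684 bp, and the narrowest was 9 bp and the widest 19901 bp. By steps of 5 kb, 130 gaps were up to 5 kb wide, 118 were 5 to 10 kb, 79 were 10 to 15 kb and 102 were 15 to 20 kb. Between neighbours of the same mark the widths fell off steeply over the same range. Of the H3K27ac neighbours 413 gaps were 5 to 10 kb and 147 were 15 to 20 kb, and of the H3K27me3 neighbours 430 and 127. In the range over 5 and up to 20 kb the median gap was 11848 bp (11011 to 12768 bp) between different marks, 9282 bp (8798 to 9743 bp) between H3K27ac domains and 8367 bp (7908 to 8962 bp) between H3K27me3 domains. At the narrow end, 23 pairs came within 1 kb of each other, 11 within 500 bp and 2 within 100 bp. Steps of 1 kb up to 20 kb held from 11 to 32 gaps of the pairs, so gaps under 1 kb were no rarer than other widths. The 522 overlapping pairs of large domains are not in this count.

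The closest pair lay on scaffold AKCR02000055.1, where an H3K27me3 domain of 20.1 kb (623870 to 643961, counted from 1) ended 9 bp before an H3K27ac domain of 9.80 kb (643971 to 653766). The next, with a gap of 68 bp at 930190 to 930257 of AKCR02000047.1, set an H3K27me3 domain of 5.47 kb against an H3K27ac domain of 40.4 kb that held 2 SOX10 summits. The other narrow gaps were 141 bp on AKCR02000033.1, 155 bp on AKCR02000349.1 and 244 bp on AKCR02000023.1. None of these 5 gaps held a SOX10 summit. At the upper limit the 5 widest gaps of the pairs ran from 19764 to 19901 bp, and the 5 mixed neighbours just outside it had gaps of 20008 to 20258 bp. All 10 lacked a SOX10 summit in the gap. At the length limit, 56 pairs had a shorter domain of 5 to 5.5 kb, and 81 more had one of 4.5 to 5 kb when domains of at least 4.5 kb were paired.

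Gaps of more than 5 kb could hold small domains of either mark, and 163 of these 299 gaps (54.5%, 48.7 to 60.3%) held no histone peak. The 130 narrower gaps held none by construction, since a peak in them would have been merged into one of the domains. H3K27ac peaks lay in 91 gaps and covered 2.43% of the 3.96 Mb of all gaps, and H3K27me3 peaks lay in 69 gaps and covered 1.22%. No peak of its own mark can lie within 5 kb outside a domain edge, since it would have been merged into the domain. That stretch was counted only up to the next domain of at least 5 kb, so the partner domain itself is left out. For the same reason no peak of the partner's mark can lie in a gap within 5 kb of the partner. This limits the values at facing edges only, so they are not like-for-like with those at far and unpaired edges. In the first 5 kb, H3K27me3 peaks covered 1.57% outside the facing H3K27ac edges. They covered 1.39% outside the far edges of the same domains and 0.353% outside the edges of unpaired H3K27ac domains. Outside the facing H3K27me3 edges, H3K27ac peaks covered 2.80%, beside 2.36% outside far edges and 1.13% outside unpaired ones.

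SOX10 was sparser in the gaps than in the H3K27ac domains. The 429 gaps held 26 SOX10 summits, the base of highest signal in each SOX10 peak, or 0.656 per 100 kb (0.429 to 0.962). Over the whole 1088 Mb spanned by peaks the density was 0.604 per 100 kb. That average includes the H3K27ac domains of at least 5 kb, which the gaps exclude by rule. These domains held 5.03 per 100 kb in pairs and 4.94 elsewhere, so the average is not a like-for-like background for gaps. Without these domains the average would be lower, and that value was not computed. A summit lay in 25 of the 429 gaps (5.83%, 3.81 to 8.48%), and 1 gap held 2. Among all 1888 gaps of up to 20 kb between neighbours of any marks, 5.61% held a SOX10 summit, so the share at mixed gaps was near that background. Gaps of up to 5 kb exist only between different marks, and those 130 gaps held 2 summits. Over 5 and up to 20 kb, a summit lay in 7.69% of gaps between different marks (4.94 to 11.3%), 4.70% between H3K27ac domains (3.30 to 6.48%) and 6.43% between H3K27me3 domains (4.75 to 8.49%). In this range, where mixed gaps were the widest on median, the density was 0.662 per 100 kb (0.424 to 0.985) between different marks, 0.467 (0.327 to 0.647) between H3K27ac domains and 0.681 (0.502 to 0.904) between H3K27me3 domains. The ratio of different marks to H3K27ac neighbours was 1.42 (0.809 to 2.44) and to H3K27me3 neighbours 0.972 (0.569 to 1.62), so neither difference was larger than the counting error.

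Within the gaps SOX10 was densest in the first 1 kb from the acetylated edge, though the summits were split almost evenly between the sides. Of all gap summits, 14 were nearer to the H3K27ac edge and 12 nearer to the H3K27me3 edge. Within 5 kb of these edges there were 12 and 11. Of the 26 summits, 8 were within 500 bp of the H3K27ac edge and 1 was within 500 bp of the H3K27me3 edge. In the first 1 kb from the H3K27ac edge the density was 1.91 per 100 kb (0.826 to 3.77), which was 3.77 times (1.42 to 9.11) that of the rest of the gap. Without that first 1 kb the gaps held 18 summits, or 0.508 per 100 kb (0.301 to 0.803). The first 1 kb from the H3K27ac edge, with 8 summits in 0.418 Mb, was not the densest 1 kb step. At 9 to 10 kb from the H3K27me3 edge there were 5 summits in 0.190 Mb. From 1 to 2 kb outside the H3K27ac edge there was none in 0.389 Mb, an exact interval of 0 to 0.948 per 100 kb. SOX10 summits were also denser just outside unpaired H3K27ac domains, at 0.850 per 100 kb in the first 1 kb (0.635 to 1.11) and 0.181 in the second (0.0902 to 0.323). The first 1 kb outside facing edges was 2.25 times (0.924 to 4.77) that outside unpaired edges, an interval that includes 1. Of the 26 SOX10 peaks, 3 shared a base with the H3K27ac domain itself.

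Of the 26 gap summits, 6 lay in a small H3K27ac peak, 20 in neither mark and 0 in an H3K27me3 peak. Taking 3 counts as the most that a count of 0 allows, that share could be up to 11.5%. The strongest, with a fold enrichment of 7.09 in the authors' list, lay at 6409322 to 6409647 of AKCR02000035.1 and held 58 fragments at its summit. It sat almost midway in a gap of 19202 bp, 9564 bp from the H3K27ac edge, in neither mark. The second, of fold 5.47 and 76 fragments, lay 303 bp outside an H3K27ac edge at 24912828 to 24913370 of AKCR02000006.1, in a gap of 2712 bp. The only gap with 2 summits, at 960565 to 977612 of AKCR02000119.1, joined an H3K27ac domain of 5.01 kb to an H3K27me3 domain of 5.57 kb, neither of which held a summit. Its SOX10 peaks had folds of 4.01 and 3.11. These 3 gaps apart, the folds ran from 2.34 to 4.61. The median fold of gap peaks was 3.84 (3.11 to 4.29) with 28 fragments, beside 3.31 (3.20 to 3.44) with 32 fragments for peaks in the paired H3K27ac domains. The median local background was 7.15 fragments for gap peaks and 8.98 for the others, so these folds are not ranked.

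On the acetylated side SOX10 density stepped up at the edge. The paired H3K27ac domains held 285 summits, or 5.03 per 100 kb (4.47 to 5.65), and 159 of the 395 domains (40.3%, 35.4 to 45.3%) had at least 1, near the 40.7% (39.0 to 42.4%) of other H3K27ac domains. From the facing edge inwards the density was 6.99 per 100 kb in the first 1 kb (4.72 to 9.98), 3.73 at 1 to 2 kb (2.13 to 6.06), 4.04 at 2 to 5 kb (3.02 to 5.30), 4.41 at 5 to 10 kb, 5.28 at 10 to 20 kb and 5.27 at 20 to 50 kb. The first 1 kb had 1.88 times the density of the second, with an interval (0.990 to 3.68) that just includes 1. The first 5 kb held 98 summits, or 4.57 per 100 kb (3.71 to 5.57). This was 6.96 times the density of the gaps (4.48 to 11.2) and 9.80 times that of the first 5 kb inside the facing H3K27me3 edges (5.11 to 21.1). The step across the edge itself was 3.65 times (1.64 to 9.22) between the first 1 kb inside and the first 1 kb outside. It was not particular to facing edges. Density went from 5.82 to 0.690 per 100 kb at far ends, with 2 summits outside, and from 5.27 to 0.850 at unpaired ends. Not every such end had bases outside to count. All 429 facing ends did, but only 297 of 361 far ends and 6172 of 6812 unpaired ends. By construction, every H3K27ac domain begins with a peak and has none within 5 kb outside.

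Over the first 5 kb as a whole, SOX10 density did not differ detectably between H3K27ac ends facing an H3K27me3 domain and other H3K27ac ends. The other ends were not free of H3K27me3. Its peaks covered 10.2% of the first 1 kb inside far ends and 5.35% inside unpaired ends, beside 4.13% inside facing ends. In the 168 domains of at least 10 kb with a single partner, the 5 kb at the facing end held 40 summits and the 5 kb at the far end 39, a ratio of 1.03 (0.643 to 1.64). Over all paired domains the first 5 kb at facing ends was 1.07 times (0.787 to 1.46) that at far ends and 0.919 times (0.742 to 1.13) that at the ends of unpaired domains. In domains shorter than 10 kb the first 5 kb from opposite ends share bases, so a summit there can count at both ends. The intervals of these ratios and of the distance steps do not allow for this. By distance step, 5 of 6 ratios of facing to far ends had an interval that included 1. The exception was 5 to 10 kb, with 4.41 summits per 100 kb from facing edges (3.43 to 5.59) and 6.30 from far edges (4.99 to 7.86), a ratio of 0.700 (0.498 to 0.980). Domains shorter than 10 kb bring the first 5 kb of the opposite end into that step. Against unpaired ends the interval also included 1 in 5 of 6 steps, and the exception was 1 to 2 kb, at 0.544 (0.308 to 0.893), where unpaired ends had 6.86 summits per 100 kb. As wholes, paired domains had 1.02 times (0.897 to 1.15) the SOX10 density of the 3406 other H3K27ac domains of at least 5 kb. Between ends of the same domains, the interval of 0.643 to 1.64 covers both a loss and a gain.

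**Figure D2:**
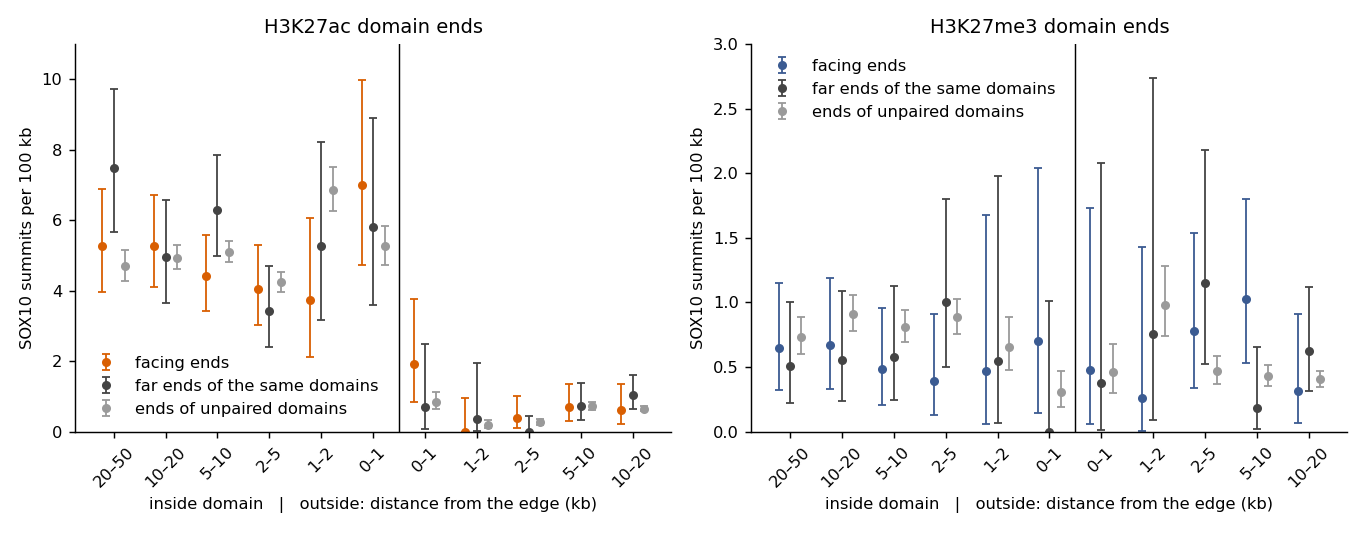
SOX10 summits per 100 kb by distance from the edges of H3K27ac domains (left) and H3K27me3 domains (right, with a smaller vertical range), inside and outside the domain, at ends facing a domain of the other mark, at far ends of the same domains and at ends of unpaired domains; bars are exact 95% Poisson intervals. Density falls from 6.99 to 1.91 per 100 kb across the facing H3K27ac edge and is 0.699 inside and 0.478 outside the facing H3K27me3 edge, from 3 and 2 summits. Outside an edge, bases are counted only up to the next domain of at least 5 kb.

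SOX10 in these domains was denser on the H3K27ac peaks than between them. Of the 285 summits in paired H3K27ac domains, 253 (88.8%, 84.5 to 92.2%) lay in an H3K27ac peak, among them 6 in peaks of both marks, and 32 lay in neither. Per length, density was 8.01 per 100 kb of H3K27ac peak (7.05 to 9.06) and 1.28 outside the peaks (0.875 to 1.81). In the other H3K27ac domains these densities were 7.73 (7.38 to 8.09) and 1.22 (1.06 to 1.39). Peak coverage was close at both ends: H3K27ac peaks covered 75.6% of the first 1 kb inside facing edges and 75.3% inside far edges, then 49.8% and 51.7% of the next. A domain begins with a peak by construction, which sets the high first value. The last H3K27ac peak at facing ends had a median fold of 4.23 (3.95 to 4.44) and a median width of 881 bp, against 4.02 (3.82 to 4.23) and 883 bp at far ends.

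**Figure D3:**
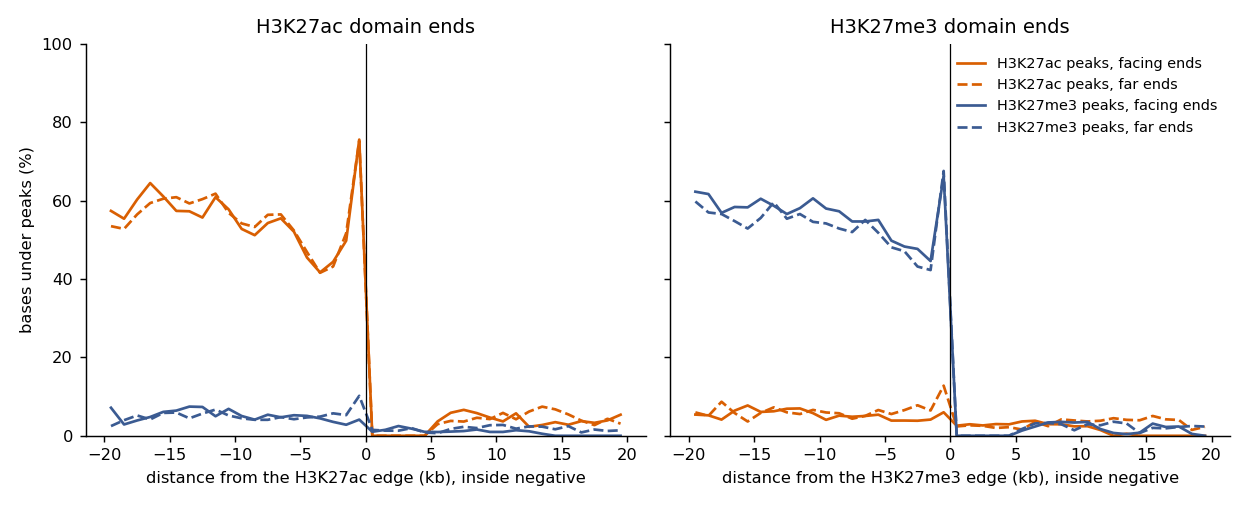
Percentage of bases under H3K27ac peaks and under H3K27me3 peaks, in steps of 1 kb, by distance from the edges of paired H3K27ac domains (left) and paired H3K27me3 domains (right), at facing ends (solid) and far ends (dashed). Outside an edge, bases are counted only up to the next domain of at least 5 kb, which leaves out the partner domain. In the first 1 kb inside, H3K27ac covers 75.6% at facing and 75.3% at far H3K27ac ends and H3K27me3 covers 66.3% and 67.6% at H3K27me3 ends; a domain's own mark is absent from the first 5 kb outside its edge because of the merging rule.

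On the Polycomb side SOX10 was sparser than in the H3K27ac domains. The average over whole scaffold spans includes those domains, so it is not a like-for-like background here either. The paired H3K27me3 domains held 46 summits, or 0.550 per 100 kb (0.403 to 0.734) beside 0.604 over all spans, and 41 of the 397 domains (10.3%, 7.51 to 13.7%) had at least 1. The first 5 kb inside the facing edge held 10 summits, or 0.466 per 100 kb (0.224 to 0.857), and the gap density was 1.41 times that value (0.657 to 3.27). Farther in, the density was 0.484 per 100 kb at 5 to 10 kb, 0.667 at 10 to 20 kb and 0.644 at 20 to 50 kb, with overlapping intervals throughout. In the 217 domains of at least 10 kb with a single partner, the facing end held 2 summits and the far end 7 within 5 kb, a ratio of 0.286 (0.0290 to 1.5). With so few summits a difference between the ends was not detectable.

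Paired H3K27me3 domains had fewer SOX10 summits per length than the 3274 other H3K27me3 domains of at least 5 kb, which held 0.785 per 100 kb (0.707 to 0.869). The ratio was 0.701 (0.504 to 0.954), from a comparison that was not among those planned. Within the scaffolds of at least 1 Mb it was 0.739 (0.482 to 1.09), and on shorter scaffolds 0.609 (0.347 to 1.02), so each interval taken alone reached above 1. It did so too when only domains of at least 10 kb were paired, at 0.725 (0.466 to 1.08). The share of domains with a summit was 10.3% (7.51 to 13.7%) in pairs and 9.80% (8.81 to 10.9%) elsewhere, and the median paired domain was longer. Outside H3K27ac peaks, paired domains had 0.342 summits per 100 kb (0.226 to 0.498) and other domains 0.635 (0.564 to 0.713), a ratio of 0.539 (0.349 to 0.800). Inside H3K27ac peaks the densities were 4.06 (2.45 to 6.35) and 4.56 (3.63 to 5.66), a ratio of 0.891 (0.511 to 1.48). The difference between these ratios was not tested, and the second interval includes the first ratio. Peaks of H3K27me3 covered 58.8% of the paired and 50.2% of the other H3K27me3 domains, and H3K27ac peaks 5.59% and 3.82%. The part of these values in the SOX10 difference was not tested.

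Within paired H3K27me3 domains too, SOX10 was denser on H3K27ac peaks. The H3K27ac peaks in these domains held 19 of the 46 summits (41.3%, 27 to 56.8%), of which 5 were in peaks of both marks. These are H3K27ac peaks of any width, and 80 of the 397 domains shared bases with an H3K27ac domain of at least 5 kb. The density inside them was 11.9 times (6.24 to 22.2) that of the remaining bases. Of the other 27 summits, 9 lay in an H3K27me3 peak alone and 18 in neither mark. SOX10 peaks in paired H3K27me3 domains had a median fold of 3.42 (2.95 to 3.77) and 25.5 fragments over a background of 7.09 fragments. In paired H3K27ac domains the background was 8.98 fragments. The fragments needed to pass the caller's limit rise with the background, so folds and fragments are not ranked between the sides.

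Counted by pair, 222 of the 429 pairs had no SOX10 summit in either domain or in the gap. The H3K27ac domain held a summit in 171 pairs and the H3K27me3 domain in 43, and in 19 pairs both did. These are 39.9% (35.2 to 44.7%) and 10.0% (7.35 to 13.3%) of pairs, near the 40.7% of H3K27ac and 9.80% of H3K27me3 domains outside pairs that held a summit. The most summits in both domains together were 8, in each of 3 pairs. On AKCR02000136.1, 6 lay in an H3K27ac domain of 80.5 kb (718000 to 798461) and 2 in the H3K27me3 domain of 89.7 kb (622089 to 711764) that faced it across 6235 bp. On AKCR02000032.1 all 8 lay in an H3K27ac domain of 60.7 kb (6608142 to 6668857), which faced an H3K27me3 domain of 17.3 kb. On AKCR02000247.1 all 8 lay in an H3K27ac domain of 42.9 kb (62241 to 105172), only 1163 bp from an H3K27me3 domain of 7.13 kb. That H3K27ac domain contained the SOX10 peak of highest fold in the list, 20.5, at 85376 to 85737.

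H3K27me3 domains in pairs had a higher median length than other H3K27me3 domains. Their median length was 11883 bp (11003 to 13016 bp) against 9348 bp (9100 to 9581 bp), a ratio of 1.27 (1.15 to 1.43), and 24.9% (20.8 to 29.5%) were at least 20 kb against 16.8% (15.5 to 18.1%). At 50 kb or more the shares were 8.56% (6.00 to 11.8%) and 3.12% (2.55 to 3.77%). For H3K27ac the medians were 9796 bp (8965 to 10515 bp) and 8752 bp (8547 to 8943 bp), a ratio of 1.12 (1.00 to 1.23). That interval overlaps the one for H3K27me3. The H3K27ac ratio was 1.04 (0.919 to 1.17) with peaks merged over gaps of up to 2 kb. Where only domains of at least 10 kb were paired it was 1.10 (0.981 to 1.27), and both of these intervals include 1. The H3K27me3 ratio was 1.08 (0.964 to 1.28) with peaks merged over gaps of up to 2 kb and 1.05 (0.896 to 1.22) where only domains of at least 10 kb were paired, and both intervals include 1. Domains of at least 50 kb made up 3.80% of paired and 1.44% of other H3K27ac domains. On scaffolds of at least 1 Mb the H3K27me3 medians were 12317 and 9220 bp and the H3K27ac medians 9378 and 8526 bp. The lengths of partners were unrelated in rank: across the 429 pairs Spearman's rho was 0.0138, a description over pairs that share domains and scaffolds. In 240 pairs the H3K27me3 domain was the longer, and in 19 both were at least 20 kb.

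**Figure D4:**
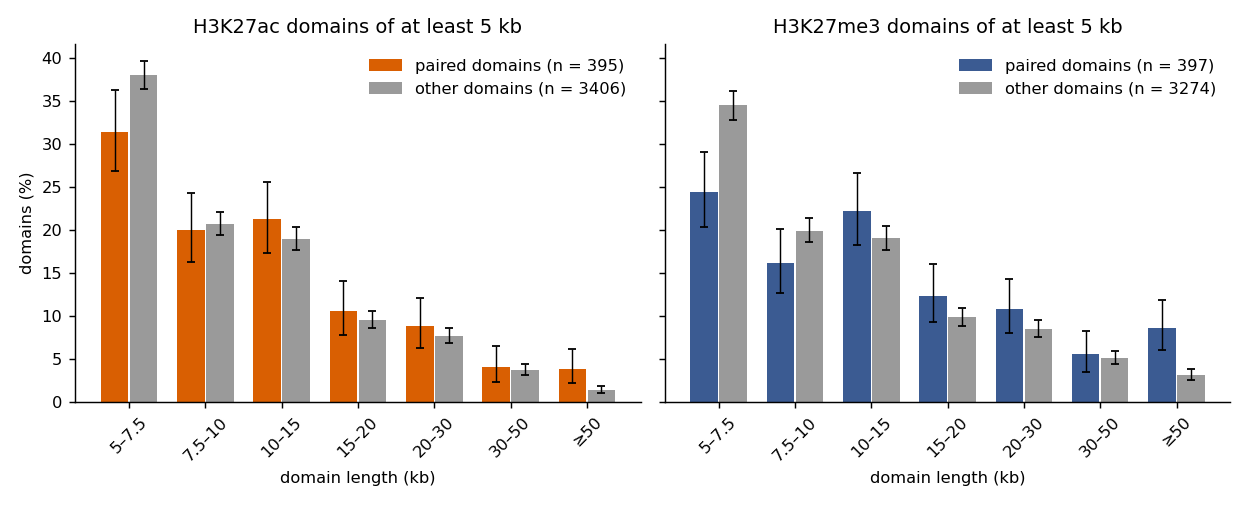
Percentage of domains of at least 5 kb in 7 length classes, for H3K27ac (left) and H3K27me3 (right), in pairs (coloured) and not in pairs (grey), with exact 95% binomial intervals. The class of 5 to 7.5 kb holds 24.4% of paired and 34.5% of other H3K27me3 domains, and the longest class 8.56% and 3.12%.

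The pair with the longest shorter domain, on AKCR02000141.1, set an H3K27me3 domain of 403 kb (100801 to 503624) against an H3K27ac domain of 106 kb (509226 to 615256) across 5601 bp. These are also the longest domains of each mark in any pair. H3K27me3 peaks covered 80.1% of the former and H3K27ac peaks 53.9% of the latter, which held 1 SOX10 summit while the H3K27me3 domain held 3. No gap of the 10 pairs ranked this way held a SOX10 summit, and their widths ran from 1105 to 19764 bp. On AKCR02000033.1 the H3K27ac domain of 33.4 kb (1160269 to 1193698) was 93.4% under H3K27ac peaks, had no base under H3K27me3 and held 4 SOX10 summits, 1105 bp from an H3K27me3 domain of 75.9 kb. On AKCR02000113.1 the H3K27ac domain of 42.4 kb (1065049 to 1107484) was itself 21.9% under H3K27me3 peaks and held 1 SOX10 summit.

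**Figure D5:**
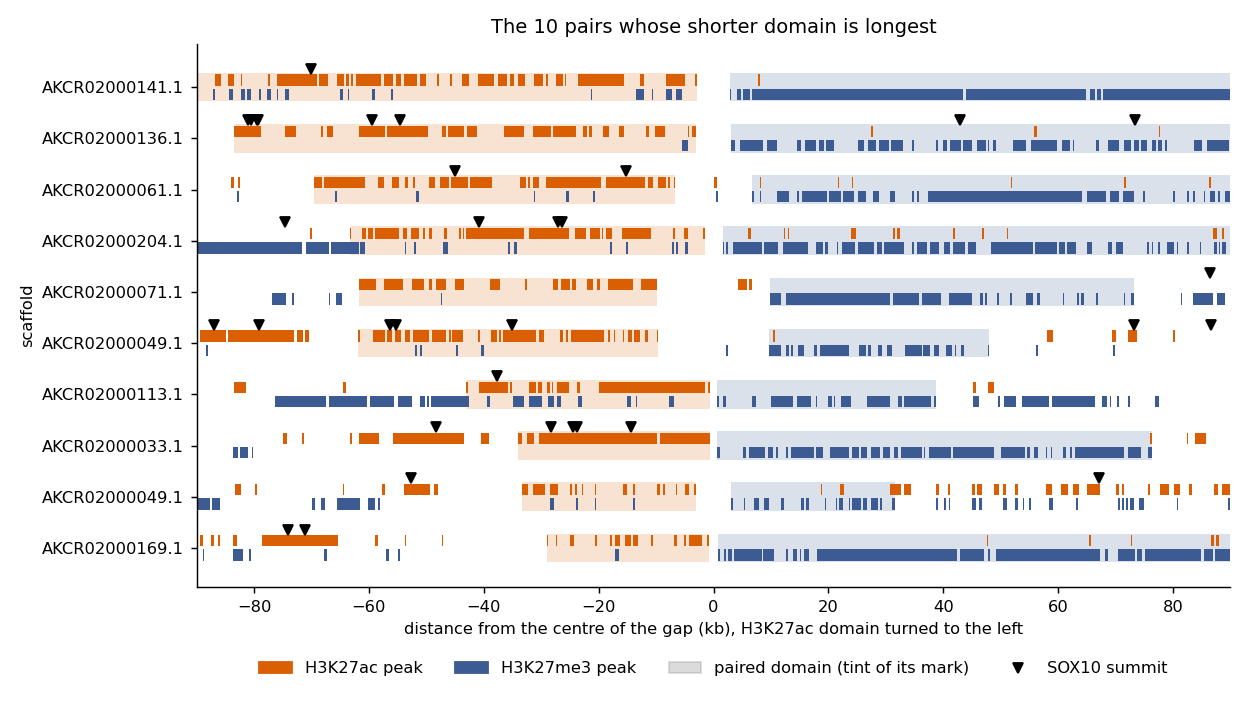
The 10 pairs whose shorter domain is longest, from the top down, each aligned on the centre of its gap with the H3K27ac domain turned to the left and cut at 90 kb on each side. Blocks are peaks of each mark, tinted bands the paired domains and triangles SOX10 summits. All 10 gaps are free of SOX10 summits.

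Paired domains more often contained a peak of the opposite mark, of any width, over all scaffolds together. An H3K27me3 peak lay in 48.6% of paired H3K27ac domains (43.6 to 53.7%) against 21.1% of others (19.7 to 22.5%), and an H3K27ac peak in 48.1% of paired H3K27me3 domains (43.1 to 53.1%) against 23.5% of others (22 to 25%). Scaffold length moved with this: on scaffolds of at least 1 Mb the H3K27ac shares were 39.6% and 11.1%, whereas on shorter ones they were 62.6% and 61.9%. Both marks chose the pairs, so this is a description. The shares were not adjusted for length, and paired domains of both marks were longer on median. By bases, H3K27me3 peaks covered 5.12% of paired and 3.89% of other H3K27ac domains. H3K27ac peaks covered 5.59% of paired and 3.82% of other H3K27me3 domains. Of the paired domains, 74 with H3K27ac and 80 with H3K27me3 also overlapped a domain of at least 5 kb of the other mark elsewhere along their length. Domains could face a partner at both ends: 34 H3K27ac domains lay between 2 H3K27me3 domains, and 32 H3K27me3 domains lay between 2 H3K27ac domains.

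The pairs were spread over 186 of the 345 scaffolds that had domains of at least 5 kb of both marks. Scaffolds of at least 1 Mb, which make up 93.3% of the span, had 261 pairs, or 2.57 per 10 Mb (2.27 to 2.90), and shorter scaffolds had 168, or 23.2 per 10 Mb (19.8 to 27). Of the H3K27ac domains of at least 5 kb, 8.06% were paired on the long scaffolds and 18.9% on the shorter ones. The gap density of SOX10 was 0.618 per 100 kb (0.353 to 1.00) on long scaffolds and 0.728 (0.349 to 1.34) on shorter ones. The richest scaffold, AKCR02000055.1, had 17 pairs in a span of 4.07 Mb, and 105 scaffolds had 1 pair each. Spans end at the last peak, so a scaffold can be longer than its span.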

How the data were processed

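Chromatin of pigeon melanocytes was immunoprecipitated for SOX10, H3K27ac or H3K27me3, and an input library was made. Per the labels' protocols, cells were fixed in 1% formaldehyde for 15 min, chromatin was sheared to 300 to 500 bp and single 75 nt reads were taken. MACS3 3.0.0, SAMtools 1.16, Bowtie2 2.2.9 and bcl2fastq 2.20 are listed, per the submitters' processing notes. For the build, the control library and the settings nothing is stated in the sources used here.

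The authors deposited 1 peak list per target, with a fold enrichment (a ratio over local background), a p-value and a q-value as −log10, and a score cut from the q-value that was not used. The q-values reached 0.0462 in the SOX10 list, 0.0968 in that of H3K27ac and 0.0965 in that of H3K27me3. Reads per library are not given. Fragments at SOX10 summits were recovered from the authors' fold and p-value, assuming the caller's Poisson tail and a pseudocount of 1. All 6579 peaks had a whole number of fragments (13 to 330) that gave their −log10 p to within 0.001.

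Domains, pairs, distances and covered bases were computed in Python 3.11.15 with NumPy 2.4.6 and SciPy 1.17.1, and the pair finder was tested on simulated domains. Densities have exact Poisson intervals, shares exact binomial (Clopper-Pearson), ratios of densities exact conditional binomial, and medians order-statistic intervals; bounds of a ratio of medians come from opposite bounds of both medians. Regions named are the 10 pairs whose shorter domain is longest, and up to 5 pairs each of narrowest gap, widest gap and most SOX10 summits. The pair of strongest SOX10 peaks in gaps and the scaffold with most pairs were chosen after their values were seen. Members, lists and comparisons were chosen with earlier results of these data known. With 1 library per target no p-value across samples was computed.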

Additional observations from a re-analysis of the deposited data

How the results depend on the processing

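Of 74 recalculations, 52 stayed within the interval of the reported value, or within 1.5 times the number of pairs. For SOX10 densities and their ratios this was the counting interval, and for the median gap the order-statistic interval. For the ratio to shuffled order its width came from the SD of the shuffled count. For ratios of median lengths it came from opposite bounds of both medians. The number of pairs was 242 with a merging gap of 2 kb, 147 with domains of at least 10 kb, 248 with gaps of up to 10 kb, 210 with histone peaks of −log10 q of at least 3 and 261 on the scaffolds of 1 Mb or more. The ratio to shuffled order of 0.350 became 0.400 with a merging gap of 10 kb (for gaps of 10 to 20 kb), 0.252 with gaps of up to 10 kb, 0.279 on scaffolds of at least 1 Mb and 0.465 with gaps under 5 kb included. The median gap was 9884 bp with a merging gap of 10 kb, 7206 bp with domains of at least 10 kb, 4854 bp with gaps of up to 10 kb and 7036 bp where domains could share up to 1 kb. The ratio of H3K27me3 lengths, 1.27, was 1.08 with a merging gap of 2 kb and 1.05 with domains of at least 10 kb, with intervals that include 1. SOX10 in the gaps was 0.353 per 100 kb with SOX10 −log10 q of at least 5, which leaves fewer summits everywhere. The ratio of facing to far H3K27me3 ends was 0 with a merging gap of 2 kb, with the stricter histone peaks and with the stricter SOX10 peaks, from 0 facing summits against 2 or 3 far ones, and 1.11 with a merging gap of 10 kb. The ratio of SOX10 in paired to other H3K27me3 domains was not planned, and its alternatives too were chosen after seeing the data. This ratio was below 1 in all 9: 0.409 with a merging gap of 2 kb, 0.255 with the stricter histone peaks, 0.381 with the stricter SOX10 peaks, and otherwise 0.694 to 0.780. Its interval reached above 1 in 4 of them (upper bounds 1.03 to 1.13). The cause was not tested. No paired analysis was possible because there is 1 library per target, and none could be left out. SOX10 summits with fewer than 13 fragments are not listed, and this limit rises with local background.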
